A study of Mus musculus with 3 samples.

Results

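The aminoacyl-tRNA synthetases are the enzymes that load each tRNA with its amino acid, and 38 genes that encode them were measured in mouse macrophages. The genes were chosen by symbol: the letter of the amino acid followed by "ars", with or without a 1 or 2, plus Farsa, Farsb, Eprs and Tarsl2, provided that at least 1 transcript is annotated as protein_coding. They are 38 of 22028 protein-coding genes and of 55536 annotated genes in the gene tables. By the known site of their products, 21 were grouped as cytosolic and 17 as mitochondrial. The rule itself uses no measured value.

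The cells were bone-marrow-derived macrophages, grown in culture from marrow of the inbred mouse strain C57BL/6J, and the assay was sequencing of polyadenylated RNA. Every sample had the same treatment: 100 ng/ml lipid A for 12 hours, a washout of 12 hours, and a second exposure of 180 minutes to lipid A at the same concentration. Toll-like receptor 4 senses lipid A, a part of bacterial lipopolysaccharide, while other label fields call the agent lipoprotein A, of type protein. The 3 samples, replicates 1, 2 and 3, form a single group with the same donor record, so no treated and untreated cells are compared, and every p-value is about the spread among these 3 libraries, part of which may be technical.

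Total expected counts, the reads assigned to features, were 23418690 to 37728915 per sample, lowest in replicate 1. The 10 macrophage markers were all above 1 TPM (a level corrected for transcript length and scaled to the library), led by Lyz2, C1qb and Cd68, and summed to 19217 to 22279 TPM. Of the B cell markers, Cd79a was at most at 0.06 TPM and Ms4a1 at 0.07 TPM, and of the erythroid markers, Hbb-bt was listed at 0 and Klf1 was at most at 0.03 TPM. The 3 T cell markers Cd3d, Cd3e and Cd8a summed to at most 0.20 TPM. The 3 stromal markers Col1a1, Col1a2 and Pdgfra summed to at most 0.57 TPM, and the 3 dendritic cell markers Flt3, Zbtb46 and Xcr1 to at most 0.91 TPM. Of the endothelial markers, Tek was listed at 0, Cdh5 was at 0.67 ± 0.25 TPM and Pecam1, which macrophages also express, at 2.03 ± 0.38 TPM (SD, n = 3). Of the 5 neutrophil markers, Ly6g was listed at 0 and Elane and Mpo were at or below 0.18 TPM, while S100a8 and S100a9 summed with them to 11.2, 97.5 and 10.6 TPM in replicates 1, 2 and 3.

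Animal cells make protein in the cytosol and in mitochondria, and most amino acids have a separate nuclear gene for the synthetase of each site. Gars and Kars serve both sites from a single gene, Eprs joins the glutamate and proline enzymes in a single protein, and Farsa and Farsb are the subunits of the cytosolic phenylalanine enzyme. Several cytosolic synthetases sit in a multisynthetase complex held by Aimp1, Aimp2 and Eef1e1, and genes for many cytosolic synthetases are known targets of ATF4, the transcription factor of the integrated stress response.

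Because ATF4 is known to bind such genes at C/EBP-ATF composite elements, the promoters were searched for TGATGNAA on both strands, and a window of each of 5 genes that hold it is shown as the sequence context of the cytosolic group. RefSeq promoter windows of GRCm38.p6, 250 bases before to 50 bases after the start site, were matched for 28 of the 38 genes, 14 cytosolic and 14 mitochondrial. The motif was found in 5 of 14 cytosolic promoters, in 0 of 14 mitochondrial ones and in 4.51% of the 27025 genes with a promoter window, or 2.83% of the 7981 that had at least 1 TPM in all replicates. Each line below gives 30 bases on the strand of the gene, 5′ to 3′, with the motif in capitals; capitals that begin with TT are the motif read on the opposite strand.
Aars, chr8:111033840-111033869, plus strand, motif beginning 9 bases after the start site: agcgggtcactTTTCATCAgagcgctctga
Gars, chr6:55037960-55037989, plus strand, motif beginning 30 bases before the start site: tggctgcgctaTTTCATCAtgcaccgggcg
Iars, chr13:49682126-49682155, plus strand, motif beginning 7 bases after the start site: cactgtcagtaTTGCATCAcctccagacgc
Tars, chr15:11399655-11399684, minus strand, motif beginning 15 bases before the start site: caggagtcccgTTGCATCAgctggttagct
Yars, chr4:129189895-129189924, plus strand, motif beginning 3 bases after the start site: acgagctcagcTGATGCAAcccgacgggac

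In the windows of Iars, Tars and Yars the copy shown is the 8 bases TGATGCAA, and in those of Aars and Gars it is TGATGAAA. The promoter of Aars holds another copy of the motif, which is not shown. The core of the interferon-stimulated response element, GAAA repeated after any 2 bases, searched on both strands, was in 1 of 14 cytosolic promoters, that of Qars, in 0 of 14 mitochondrial ones and in 3.99% of all genes. A match is a string of letters and not a measured binding site, and a window without it says nothing of the factor. Cars, Hars, Hars2, Lars, Nars, Pars2, Rars, Vars and Wars are among the genes named here without a window.

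Nearly all synthetase genes were expressed. In every replicate 36 of 38 had 1 TPM or more, against 44.3% of protein-coding genes. Mars2, the mitochondrial methionine enzyme, had 0.36, 0.29 and 0.27 TPM in replicates 1, 2 and 3. TPM divides by length, and the 64, 83 and 78 reads of Mars2 were set against a transcript, Mars2-201, of 11294 bases. Nars2, the mitochondrial asparagine enzyme, had 0.96, 1.63 and 1.33 TPM. Mars2 was thus under 1 TPM in 3 of 3 replicates and Nars2 in replicate 1 alone. The counts behind a gene ran from 30 to 22295 reads in a sample.

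The cytosolic genes lay above the middle of the expressed genome and the mitochondrial genes below it. The median of log2(TPM + 1) was 5.35, 5.30 and 5.46 over the cytosolic genes in replicates 1, 2 and 3, against 2.31, 2.53 and 2.36 over the mitochondrial genes. The difference was 3.04, 2.76 and 3.10, a mean of 2.97 ± 0.18 on the log2 scale (SD, n = 3), and no replicate of a group reached the other group. Expressed protein-coding genes had a median of 4.25 ± 0.02. A mean above that of the middle expressed protein-coding gene was seen in 16 of 21 cytosolic and 1 of 17 mitochondrial genes. That mitochondrial gene was Lars2, whose level lies mostly in a transcript not annotated as protein_coding, as given below. With 3 samples a two-sided sign-flip test of the difference cannot give a p below 0.25, and members share their libraries, so the difference is a description. In bulk RNA, a lower share of cells that express a gene and less of its RNA per cell cannot be told apart.

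**Figure D1:**
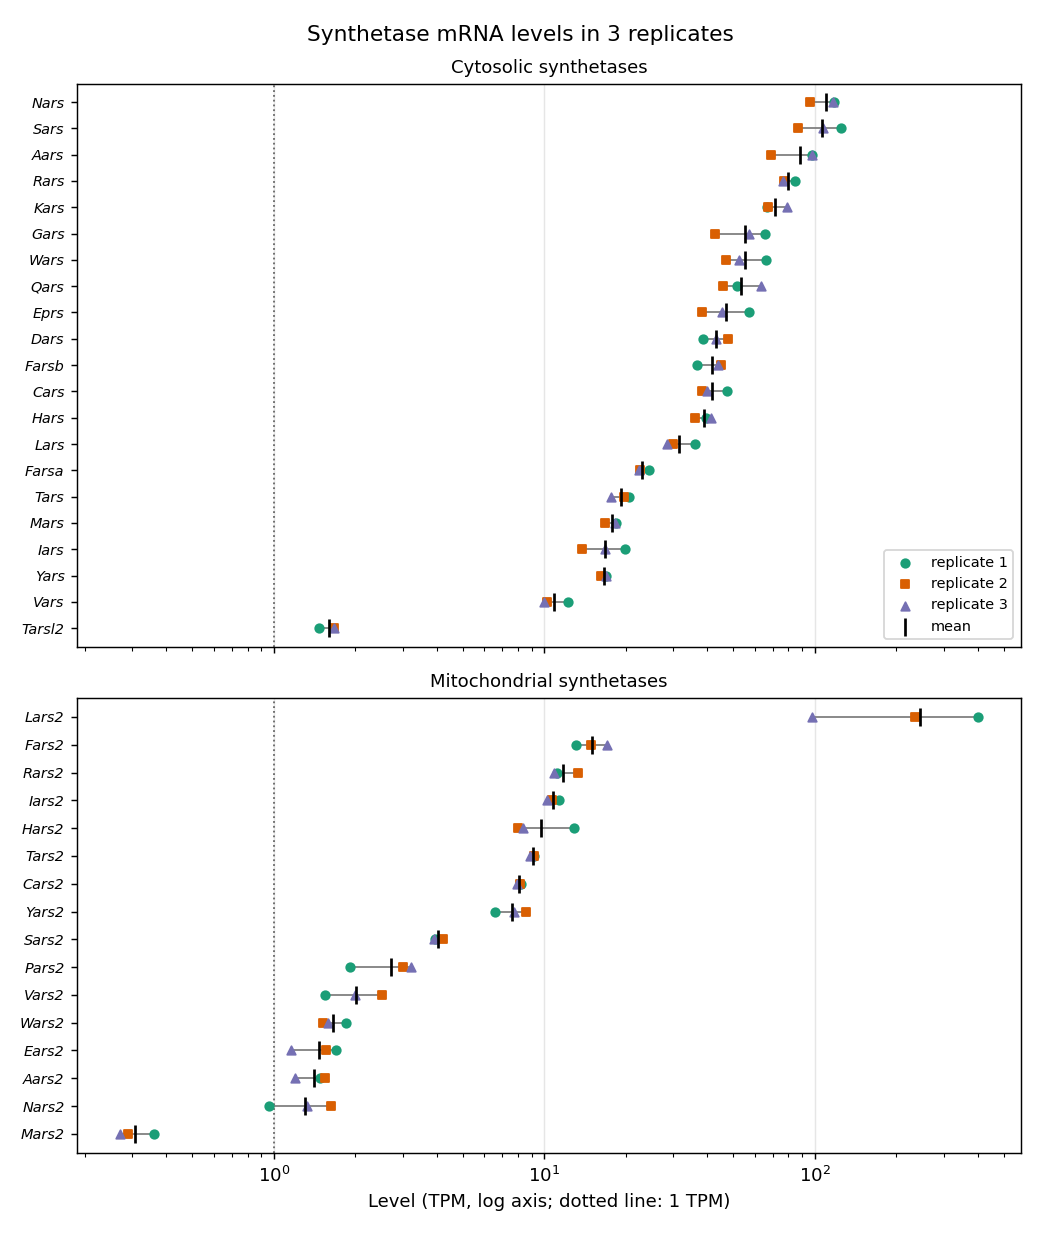
Levels of synthetase genes in TPM on a log axis, with cytosolic genes in the upper panel and mitochondrial genes in the lower one. Coloured marks are the 3 replicates, black ticks their mean and grey lines their range. All cytosolic genes except Tarsl2 average at least 10 TPM, while among mitochondrial genes only Lars2, Fars2, Rars2 and Iars2 do.

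Among the cytosolic genes, those for asparagine, serine, alanine, arginine and lysine stood highest. Nars (chr18:64499647-64516652, mm10, minus strand) had 118, 95.7 and 117 TPM in replicates 1, 2 and 3. Sars had 126, 86.9 and 107 TPM. Aars had 97.6, 68.7 and 97.6 TPM. All 3 genes had their lowest level in replicate 2. Aars was below both others in all 3 replicates, while Sars was above Nars in replicate 1 and below it in replicates 2 and 3. Rars followed at 79.3 ± 4.65 TPM and Kars, which serves cytosol and mitochondria, at 71.1 ± 6.83 TPM (SD, n = 3). Gars, the glycine enzyme of both sites, had 65.5, 42.7 and 57.3 TPM. Wars, the tryptophan enzyme and a gene that interferon is known to induce, had 66.0, 47.0 and 52.5 TPM. Gars and Wars thus differed by less than the spread of either.

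A middle group of cytosolic genes lay between 30 and 55 TPM on average. Qars, for glutamine, had 51.7, 45.8 and 63.3 TPM. Eprs, the joint glutamate and proline enzyme, had 57.3, 38.2 and 45.4 TPM. Dars, for aspartate, averaged 43.1 ± 4.65 TPM, Cars, for cysteine, 41.8 ± 4.76 TPM, Hars, for histidine, 39.0 ± 2.77 TPM, and Lars, for leucine, 31.5 ± 4.07 TPM (SD, n = 3). The subunits of the phenylalanine enzyme were unequal in mRNA: Farsa, the alpha subunit, averaged 23.1 ± 1.08 TPM and Farsb, the beta subunit, 41.9 ± 4.45 TPM. The ratio of Farsa to Farsb was 0.558 ± 0.0898 (SD, n = 3) and below 1 in all 3 replicates.

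The lowest cytosolic genes were those for threonine, methionine, isoleucine, tyrosine and valine. Tars averaged 19.3 ± 1.53 TPM, Mars 17.8 ± 0.894 TPM, Iars 16.8 ± 3.02 TPM, Yars 16.7 ± 0.378 TPM and Vars 10.8 ± 1.22 TPM (SD, n = 3). Tarsl2, a second cytosolic threonine enzyme, stood apart at 1.47, 1.67 and 1.67 TPM. The mean levels of the 21 cytosolic genes spanned 68.7-fold.

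The 8 cytosolic genes whose products join the multisynthetase complex, Rars, Kars, Qars, Eprs, Dars, Lars, Mars and Iars, ranged in mean level from 16.8 to 79.3 TPM. Their median log2(TPM + 1) was 5.51, 5.42 and 5.50 in replicates 1, 2 and 3, against 5.35, 5.30 and 5.40 for the 13 cytosolic genes outside it. The complex members were thus slightly higher in 3 of 3 replicates, by less than the range among the genes of either set. Of the scaffold genes, Aimp1 averaged 37.6 ± 1.59 TPM, within the range of mean levels of the 8 complex members. Eef1e1 at 11.4 ± 0.683 TPM and Aimp2 at 10.1 ± 0.601 TPM averaged below that range (SD, n = 3). Synthetases fall into 2 structural classes by the fold of their catalytic domain. The 11 cytosolic class II genes had medians of 5.35, 5.52 and 5.48, and the 9 class I genes 5.21, 4.96 and 4.88. Eprs, which holds a domain of each class, was counted in neither.

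Mitochondrial genes other than Lars2 had low levels. Fars2, for phenylalanine, had 13.1, 14.9 and 17.0 TPM in replicates 1, 2 and 3. Rars2, for arginine, had 11.1, 13.3 and 10.8 TPM. Iars2, for isoleucine, had 11.3, 10.6 and 10.3 TPM. These 3 had the highest means after Lars2. Fars2 was above both others in all 3 replicates of the alignment tables used here, though not of a second deposited set made from FASTQ files, while the ranges of Rars2 and Iars2 overlapped. Hars2, for histidine, had 12.8, 7.97 and 8.36 TPM, so replicate 1 lay above the others. Over its protein_coding transcripts only, the gap was smaller, with 7.17, 6.14 and 6.66 TPM. Tars2, Cars2 and Yars2 averaged 9.08 ± 0.205, 8.09 ± 0.129 and 7.59 ± 0.994 TPM (SD, n = 3).

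The other 9 mitochondrial genes averaged below 5 TPM. Among them, Sars2 was at 4.03 ± 0.174 TPM, Pars2 at 2.72 ± 0.698 TPM and Vars2 at 2.02 ± 0.491 TPM. Wars2, Ears2 and Aars2 followed at 1.65 ± 0.174, 1.47 ± 0.280 and 1.41 ± 0.181 TPM, above Nars2 at 1.31 ± 0.336 TPM and Mars2 at 0.307 ± 0.0473 TPM (SD, n = 3). Of the 37 pairs of neighbours in the order of all 38 mean levels, 30 had overlapping ranges and 7 did not, and in 11 the higher gene was higher in every replicate. Summed over genes without Lars2, the mRNA of cytosolic synthetases was 1045, 868 and 995 TPM, against 89.6, 93.7 and 89.8 TPM for mitochondrial synthetases. The ratio of the sums was 11.7, 9.26 and 11.1.

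For 16 of 17 amino acids with a gene for each site, the paired cytosolic gene exceeded the mitochondrial one in all 3 replicates. Tars was paired for threonine, and Farsa, the subunit with less mRNA, for phenylalanine. Tarsl2, the other cytosolic threonine gene, was below Tars2 in each replicate, with 1.47, 1.67 and 1.67 TPM against 9.20, 9.19 and 8.84 TPM. The mean log2 ratio of TPM was above 4 in 7 pairs, between 2 and 4 in 5 pairs and between 0 and 2 in 4 pairs. Asparagine showed the widest gap, with a log2 ratio of Nars to Nars2 of 6.94, 5.88 and 6.46 in replicates 1, 2 and 3. Alanine followed, with 6.04, 5.48 and 6.35 for Aars to Aars2. Methionine, with 5.68, 5.86 and 6.08 for Mars to Mars2, came next. On counts, which are not divided by length, the mean log2 ratio of Mars to Mars2 was 3.55, against 5.87 on TPM. The mean log2 ratio was 5.05 ± 0.10 for Wars to Wars2, 4.99 ± 0.35 for Eprs to Ears2, 4.71 ± 0.32 for Sars to Sars2 and 4.13 ± 0.67 for Eprs to Pars2 (SD, n = 3).

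Smaller gaps separated the other pairs. The mean log2 ratio was 2.76 ± 0.20 for Rars to Rars2, 2.45 ± 0.49 for Vars to Vars2, 2.36 ± 0.15 for Cars to Cars2 and 2.04 ± 0.36 for Hars to Hars2. The narrowest were 1.14 ± 0.22 for Yars to Yars2, 1.08 ± 0.09 for Tars to Tars2, 0.63 ± 0.23 for Iars to Iars2 and 0.63 ± 0.25 for Farsa to Fars2 (SD, n = 3). Over protein_coding transcripts only, the mean was 1.00 for Farsa to Fars2 and 0.68 for Iars to Iars2. With FASTQ-made TPM these 2 means were 1.01 and 0.49. In the 4 narrowest pairs the cytosolic gene was still higher in 3 of 3 replicates. Leucine was the exception, with a log2 ratio of Lars to Lars2 of -3.47, -2.96 and -1.79.

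**Figure D2:**
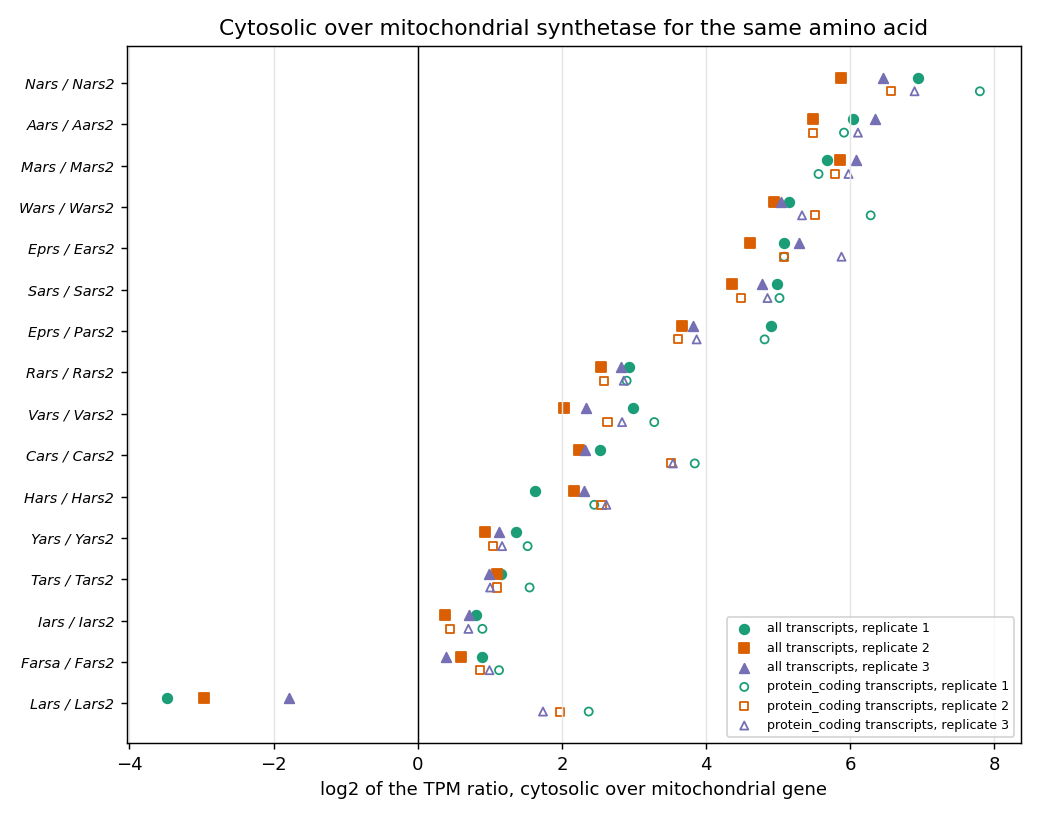
Log2 of the TPM ratio of the cytosolic over the mitochondrial gene for the same amino acid, for 16 pairs. Filled marks use all transcripts of a gene and open marks protein_coding transcripts only, with 1 mark per replicate; all marks lie right of 0 except the filled marks of Lars over Lars2.

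The transcripts behind the gene levels also differed between the groups. The share of a gene's TPM in transcripts annotated as protein_coding had a median of 95.8% over the cytosolic genes and 75.9% over the mitochondrial genes. It was at least 80% in 19 of 21 cytosolic and 8 of 17 mitochondrial genes. Among cytosolic genes the exceptions were Lars, at 78.7% ± 13.7, and Qars, at 28.6% ± 7.55 (SD, n = 3). Among mitochondrial genes the lowest shares were those of Lars2, at 3.91% ± 3.67, and Cars2, at 36.0% ± 3.52. These shares rest on how the authors' tables divide reads between transcripts of a gene, which is less certain than the sum. At low levels the shares are built from few reads. The same shares over other genes of like level are not given here, so the difference between the groups is a description.

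In 35 of 38 genes the alignment tables and the tables made from FASTQ files named the same transcript as the most abundant, and Cars2 and Iars were among the exceptions. For Iars the names differed, Iars-206 in the alignment tables and Iars-201 in the FASTQ-made tables, although each encodes 1262 amino acids. The leading transcript was not a protein_coding one in 2 genes. In Qars (chr9:108507706-108515941, mm10, plus strand) it was Qars-231, annotated for nonsense-mediated decay, the pathway that degrades mRNAs with early stop codons. Qars-231 held 42.6% ± 3.18 of the gene's TPM, and the protein_coding Qars-203 held 25.0% ± 6.94 (SD, n = 3). The coding part of Qars-231 ends after 100 amino acids, with 21 whole exons behind it, while that of Qars-203 runs to 751 amino acids.

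Kars is known in human cells to give a cytosolic and a longer mitochondrial protein by alternative splicing. In mouse, Kars-201, coding for 595 amino acids, held 85.4% ± 1.14 of the TPM of Kars. Kars-202 and Kars-203, each coding for 624 amino acids, together held 11.5% ± 0.780 (SD, n = 3). The longer form was thus the minor one in 3 of 3 replicates, with 7.54, 7.31 and 9.76 TPM in replicates 1, 2 and 3. The FASTQ-made tables put it at 12.2% ± 0.939. For Gars, which is known to use alternative start codons, Gars-201 held 99.5% ± 0.461 and the tables do not separate the forms.

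**Figure D3:**
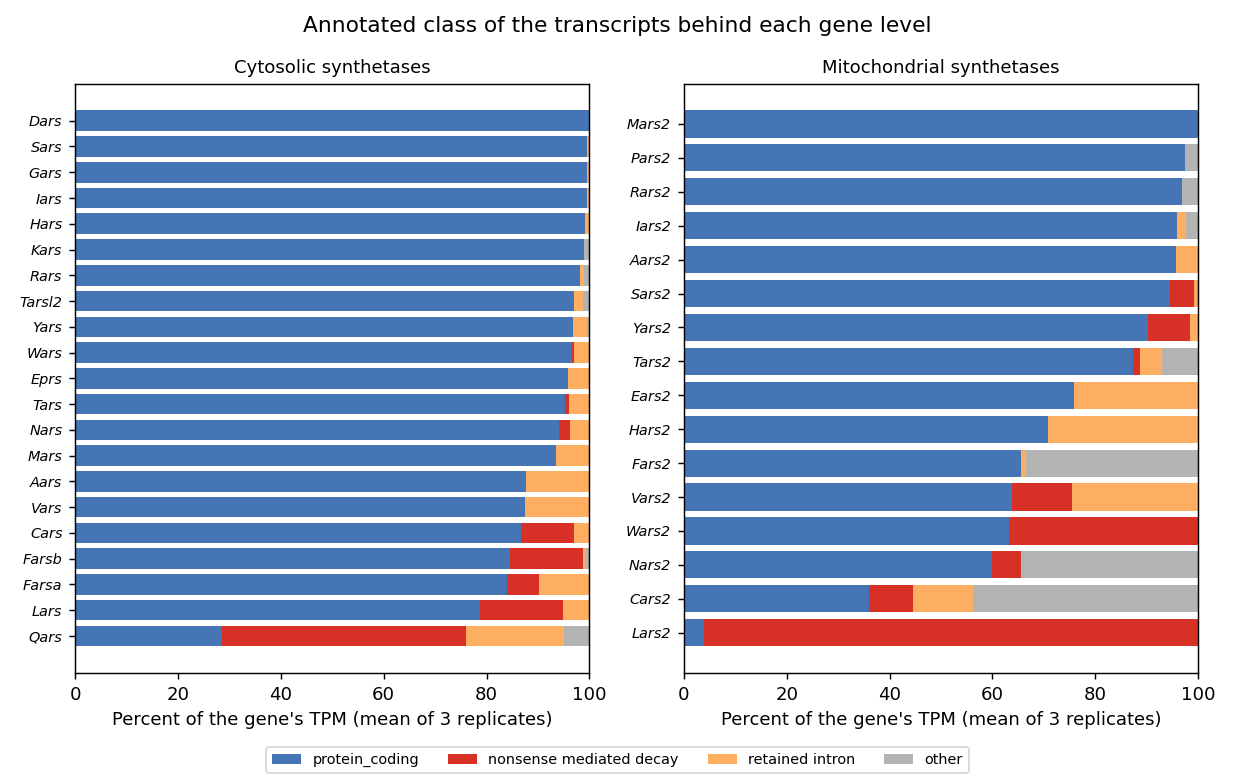
Share of each gene's TPM by the annotated class of its transcripts, as stacked bars of the mean of 3 replicates, with cytosolic genes on the left and mitochondrial genes on the right. Blue, the protein_coding share, fills at least 80% of the bar in 19 cytosolic and 8 mitochondrial genes, and nearly none of it in Lars2.

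Lars2 (chr9:123366927-123462666, mm10, plus strand), the mitochondrial leucine enzyme, had the highest mean and the widest spread among the 38 genes. It had 400.3, 234 and 98.0 TPM in replicates 1, 2 and 3. It was thus above all other members in replicates 1 and 2 and below Nars and Sars in replicate 3. These levels made up 81.7%, 71.4% and 52.2% of all mitochondrial synthetase TPM. Of its TPM, Lars2-209, a transcript annotated for nonsense-mediated decay, held 395, 228 and 90.1. The protein_coding transcripts of Lars2 held 4.60, 5.86 and 7.92 TPM, in the range of the other mitochondrial genes and in the opposite order of replicates. Counted over protein_coding transcripts only, the log2 ratio of Lars to Lars2 was 2.37, 1.98 and 1.74, and the cytosolic gene exceeded the mitochondrial one in 17 of 17 pairs.

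Bases 3023 to 3209 of the 3756 bases of this leading transcript hold stretches that other annotated transcripts nearly repeat. Bases 3023 to 3072 are 96% identical to a transcript of AA474408, and bases 3093 to 3189 are 94.8% identical to it. Bases 3138 to 3209 are 98.6% identical to a transcript of Gm15564. AA474408 was at 457, 305 and 146 TPM in the FASTQ-made tables, against 0.16, 0.09 and 0.17 TPM in the alignment tables. Gm15564 was at 46.7, 28.7 and 12.6 TPM in the FASTQ-made tables, against a listed 0 in each alignment table. In the FASTQ-made tables both genes thus had the replicate order of Lars2. The part of these stretches in the level of Lars2 was not tested. Lars2 is therefore taken from the alignment tables here, and group values are also given without it.

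For the other 37 genes the deposited quantifications were close. The ratio of the FASTQ-made TPM to the alignment TPM had a median of 0.840 and ran from 0.639 for Fars2 to 1.15 for Vars2, against a median of 0.860 over expressed protein-coding genes. The ratio for Lars2 was 6.14. The lower TPM of the FASTQ-made tables put 33 of these 37 genes at or above 1 TPM in all replicates.

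**Figure D4:**
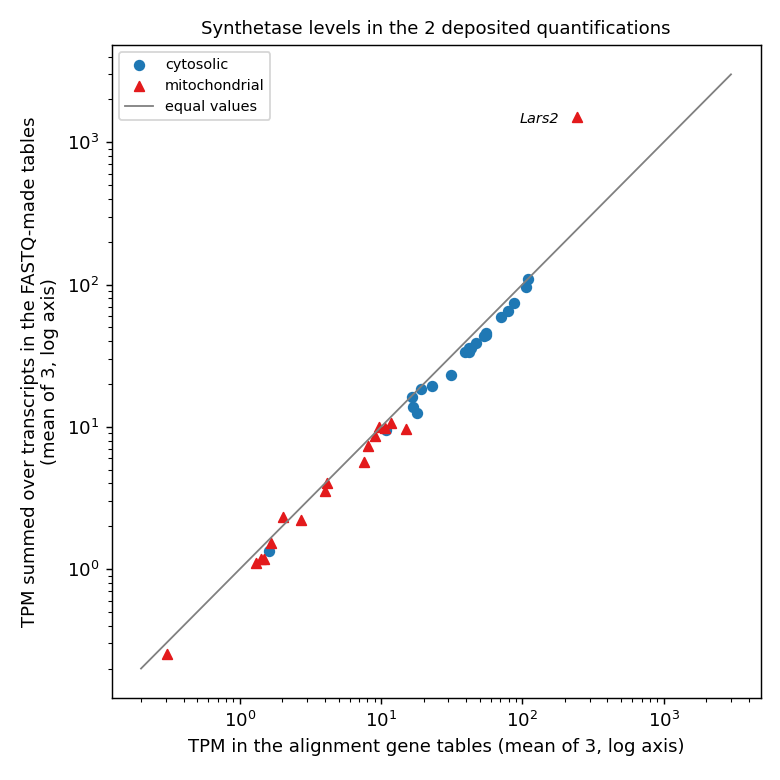
TPM summed over transcripts in the FASTQ-made tables against TPM in the alignment gene tables, each a mean of 3 replicates on a log axis, for cytosolic (circles) and mitochondrial (triangles) genes. Most points lie slightly below the line of equal values, and Lars2 lies far above it, its FASTQ-made value being 6.14 times its alignment value.

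Reads shared with other genes limit a few levels. At least 10% of the 31-base sequences of a gene occur in transcripts of other genes for 4 members. They include Aars, at 14.4%, most of it with Exosc6 on the same strand, Iars, at 14.7%, and Iars2, at 23.6%, most of it with Rab3gap2 on the opposite strand. An opposite-strand gene overlaps 18 members and a same-strand gene 9. Among them, Hars and Hars2 overlap each other, and Mars overlaps Ddit3, a stress-response gene. Whether counting used strand is not given in the sources used here, so reads from such partners may not be told apart.

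The spread between replicates was tested for every gene, and after adjustment the test called no gene, so it does not tell synthetases from other genes. It compared each gene's variance with the trend over all genes, by edgeR's quasi-likelihood fit with Benjamini-Hochberg adjustment. It called 0 of 38 members and 0 of 11992 genes, which is 0%, and DESeq2 called 53 genes, or 0.442%, as outliers of its dispersion trend. At an unadjusted p under 0.05 edgeR listed 627 genes, or 5.23%, and 1 of 38 members. That member was Lars2, with an unadjusted p of 0.00333 and an adjusted p of 0.818 in edgeR, and it was the 1 member among the DESeq2 outliers. The coefficient of variation of TPM had a median of 11.3% over the cytosolic genes and 13.1% over the mitochondrial genes without Lars2, close to 12.6% over expressed protein-coding genes.

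Within that spread, most cytosolic genes shared a low replicate. Their median deviation from the gene's own mean, in TMM-scaled log2 CPM, was 0.11, -0.13 and 0.03 in replicates 1, 2 and 3, against 0.00, 0.01 and 0.00 over all genes tested. Replicate 2 was the lowest for 17 of 21 cytosolic genes, or 81.0%, against 31.8% of all genes tested. Replicate 3 was the lowest for 0 of 21, against 32.6%, and replicate 1 for 4 of 21, against 35.6%. Replicate 1 was the highest for 13 of 21, against 35.9% of all genes, replicate 2 for 2 of 21, against 32.4%, and replicate 3 for 6 of 21, against 31.7%. The adjusted variance test called no gene, which with 3 libraries does not show that they are alike. Genes of a library are not independent, so these counts describe the libraries. Counted on TPM, replicate 2 was the lowest for 12 of 21 in the gene tables, against 28.5% of all genes, and for 9 of 21 in the FASTQ-made tables, against 19.1%. The FASTQ-made TPM shifted the median of all genes by -0.24, 0.06 and 0.19, and relative to that shift the cytosolic medians were 0.14, -0.11 and 0.04.

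The mitochondrial genes did not share this order. Their median deviation was -0.04, 0.05 and -0.07 in replicates 1, 2 and 3. Replicate 2 was the lowest for 1 of 17 mitochondrial genes, and replicate 3 for 9 of 17, against 32.6% of all genes tested. Counted on TPM, replicate 3 was the lowest for 9 of 17 in the gene tables but for 2 of 17 in the FASTQ-made tables. Replicate 2 was the lowest for 2 of 17 in either. Relative to the shift of all genes in the FASTQ-made TPM, the mitochondrial medians without Lars2 were 0.01, 0.04 and -0.07. The cytosolic genes that deviated most were Aars, with deviations of 0.20, -0.36 and 0.16, Gars, with 0.28, -0.36 and 0.09, Sars, with 0.32, -0.31 and -0.01, and Eprs, with 0.31, -0.30 and -0.01. Dars and Farsb went the other way, with -0.13, 0.13 and 0.00 for Dars and -0.12, 0.09 and 0.04 for Farsb. Over the 5 cytosolic genes with TGATGNAA in the promoter windows printed above, the median deviation was 0.20, -0.26 and 0.04. Over the 9 cytosolic genes with a window that lacks it, the median was -0.08, -0.07 and 0.03. Aars and Gars are among the 5, as is Yars, with 0.01, -0.05 and 0.04. Sars, Eprs, Dars and Farsb are among the 9. The cytosolic genes without a window, Cars, Hars, Lars, Nars, Rars, Vars and Wars, are in neither set. Each of them was lowest in replicate 2, such as Wars with 0.25, -0.23 and -0.01 and Nars with 0.11, -0.21 and 0.11. Whether the motif goes with the order of replicates was not tested.

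**Figure D5:**
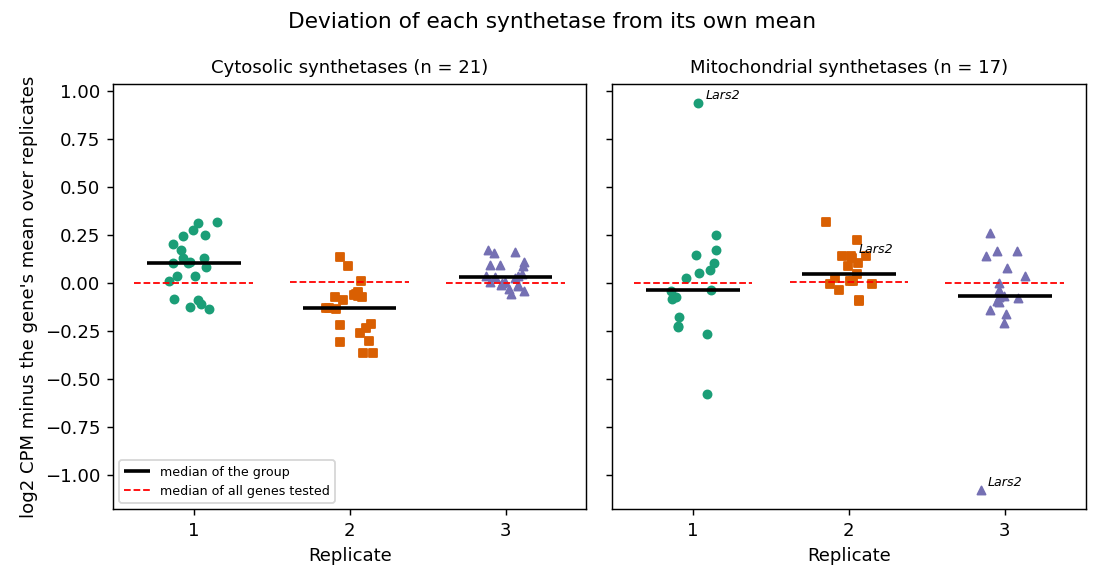
Deviation of each gene's TMM-scaled log2 CPM from its mean over 3 replicates, for cytosolic genes on the left and mitochondrial genes on the right; black bars are group medians and dashed lines the median of all genes tested. Cytosolic genes lie mostly below 0 in replicate 2, mitochondrial genes do not, and Lars2 is the farthest point in replicates 1 and 3.

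The list of ATF4 targets and integrated stress response genes had its own pattern in the same libraries. Its median deviation was 0.51, -0.36 and -0.13 in replicates 1, 2 and 3 over 19 genes tested. Replicate 1 was the highest for 19 of 19, against 35.9% of all genes, and replicate 2 the lowest for 13 of 19, against 31.8%. Atf4 itself had 224, 135 and 129 TPM. Asns, which makes asparagine, had 31.6, 11.9 and 26.0 TPM. Trib3, a pseudokinase gene induced by ATF4, had 17.6, 4.28 and 4.59 TPM. In all 3 genes replicate 1 was the highest, and replicate 2 was the lowest only in Asns and Trib3. Ddit3, which encodes the stress factor CHOP, had 456, 223 and 281 TPM, and its symbol belongs to 2 annotated genes, of which the higher was used.

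Chac1, an ATF4 target that degrades glutathione, had 3.83, 0.26 and 0.14 TPM and was too low to be tested. Slc3a2, the shared heavy chain of amino acid transporters, was the highest gene of the list at 531, 375 and 483 TPM. An unadjusted p under 0.05 in the edgeR variance test was reached by 9 of 19, against 5.23% of all genes tested. An adjusted p under 0.05 in that test was reached by 0 of 19, and by 0 of all 11992 genes. Replicate 1 also had the fewest reads, and replicate 2 the highest S100a8 and S100a9, with 39.4 and 58.0 TPM, against at most 6.84 and 5.10 TPM in the others. The part of depth, of S100a8 and S100a9, and of stress-response genes in the order of the cytosolic synthetases was not tested.

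Genes that act beside the synthetases were expressed too. No separate mitochondrial gene for glutamine loading is known, and mitochondria convert glutamate on the tRNA with the enzyme encoded by Qrsl1, Gatb and Gatc. All 4 genes of that step and of initiator tRNA formylation were at 1 TPM or more, led by Gatc at 11.5 ± 1.79 TPM, Gatb at 6.61 ± 0.766 TPM and the formylase Mtfmt at 4.82 ± 0.678 TPM (SD, n = 3). Of 7 genes that correct or rescue misloaded or stalled tRNAs, 7 were at 1 TPM or more, led by Prorsd1 at 21.5 ± 3.60 TPM, Aarsd1 at 8.46 ± 1.41 TPM and Dtd2, which removes D-amino acids and alanine from tRNA, at 7.84 ± 0.845 TPM.

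Selenocysteine is made on a tRNA first loaded by Sars. Its 6 genes were all at 1 TPM or more, led by Sephs2, which makes the selenium donor, at 103 ± 24.0 TPM, Secisbp2 at 9.46 ± 1.42 TPM and Sephs1 at 9.33 ± 0.584 TPM. Genes listed here as translation elongation factors, with exchange factors and other related factors, were also higher for the cytosol than for mitochondria. The 5 cytosolic ones had a median log2(TPM + 1) of 7.84 ± 0.04 and the 5 mitochondrial ones 3.84 ± 0.03. Eef1a1, which delivers tRNAs to the cytosolic ribosome, was at 2878 ± 199 TPM, followed by Eef2 at 524 ± 48.5 TPM and Eef1b2 at 228 ± 5.61 TPM. Tufm, the mitochondrial counterpart of Eef1a1, was at 40.7 ± 5.34 TPM, followed by Gfm1 at 24.7 ± 1.47 TPM and Gfm2 at 13.3 ± 0.315 TPM.

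The 5 listed tryptophan-degrading genes, some of which interferon can induce, were low. Ido1 was at 0.203 ± 0.103 TPM and Tdo2 at 0.0167 ± 0.00577 TPM. Ido2 had 3.03, 0.80 and 3.61 TPM, Kmo 0.91, 0.50 and 1.05 TPM and Kynu 4.21, 1.41 and 2.51 TPM. Each of the 5 was thus far below Wars, at 55.2 ± 9.78 TPM. Lars is also known as a leucine sensor for the mTORC1 kinase. Of the 5 genes of leucine sensing, all were at 1 TPM or more, led by Rragc, a Rag GTPase, at 114 ± 3.65 TPM, with Sesn1 at 11.8 ± 6.52 TPM and the kinase gene Mtor at 10.1 ± 0.788 TPM.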

How the data were processed

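Per the file headers, the authors deposited gene and transcript tables with expected counts and TPM, made from an alignment, and transcript tables with estimated counts and TPM, made from FASTQ files (6 for replicate 1, 4 for each of the others). Per the deposited file lists, the assembly is mm10 and the annotation M21; the programs and any strand setting were not given in the sources used here. TPM keeps no depth, and estimated shares of transcripts depend on the model that made them.

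The 38 members, their sites and the related lists were chosen with earlier results of these data known. Levels are deposited TPM; list levels are medians of log2(TPM + 1), with a pseudocount of 1. Expected counts were rounded for edgeR 4.0.16 in R 4.3.3 (filterByExpr, TMM factors 0.982, 1.03 and 0.992, intercept-only quasi-likelihood fit with prior degrees of freedom 4.14); each gene's variance was tested one-sided against the trend, adjusted by Benjamini-Hochberg at 0.05 over 11992 genes. Simulated data were used to test the script. DESeq2 1.42.0 gave size factors and dispersion outliers. PhiX, which names no gene and took 0.107% to 0.178% of counts, was left out of library sizes. The replicates were no duplicates: chi-square per degree of freedom over genes was 69.3 to 73.6. Sequence sharing used 31-base strings of GENCODE M21 transcripts, and BLAST+ 2.17.0 for Lars2. Other tools were Python 3.11.15, pandas 2.3.3, numpy 2.4.6 and matplotlib 3.10.9. Synthetases were named by membership, not by value, and some items are not reported here; of each related list, the genes under 1 TPM in any replicate and the 3 highest are named, plus Atf4, Asns, Ddit3, Chac1 and Trib3.

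Alternatives were other pseudocounts, summaries, filters, source tables, scalings, memberships and each replicate left out; counting on gene table TPM, and other scalings of the count of genes lowest in replicate 2, were added after seeing the data.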

Additional observations from a re-analysis of the deposited data

How the results depend on the processing

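No paired analysis was possible because the samples form a single group. The cytosolic minus mitochondrial difference kept its direction under all alternatives: 3.21 with a pseudocount of 0.1, 2.48 with means over members, 2.64 with only members averaging 1 TPM or more, 3.25 with protein_coding transcripts only, and 2.90 to 3.07 with a replicate left out. The cytosolic level became 5.16 with means, 5.11 with FASTQ-made TPM, 5.94 with log2(CPM + 1) not divided by length and 5.25 with protein_coding transcripts only. In the same order the mitochondrial level became 2.68, 2.24, 2.88 and 2.00, with 2.13 at a pseudocount of 0.1 and 2.73 for members averaging 1 TPM or more. The number of genes with excess variance, 0 by edgeR after adjustment, was 143 with no filter on low counts, 53 as DESeq2 dispersion outliers and 627 at an unadjusted p under 0.05, and 0 with any replicate left out. With FASTQ-made TPM, the cytosolic median deviation was -0.10 in replicate 1 and 0.23 in replicate 3, and the mitochondrial one -0.23 and 0.12; this scaling shifts the median of all genes, as given above. On it, 9 cytosolic genes were lowest in replicate 2. Members at 1 TPM or more numbered 28 at a threshold of 5 TPM, and 36 to 37 with a replicate left out. Pairs with the cytosolic gene higher stayed at 16 with any replicate left out. With 3 samples of 1 group, depth limits mainly the genes with few reads, such as Nars2 with 30 to 94, Ears2 with 53 to 92 and Mars2 with 64 to 83 in a sample, and the transcript shares of genes under 5 TPM.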
